A study of Mus musculus with 6 samples.

Results

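Genes of cholesterol synthesis, its control by SREBP2, sterol transport and cholesterol efflux were compared between mammary tumors with and without JAM-A. The 31 genes were listed by name for their known function, with earlier results of these data known. A gene counted as measured when a probe set was paired with exactly 1 gene symbol, and the probe set with the highest mean over the 6 arrays was taken where a gene had more than 1. This left 28 of the 31 genes, out of 19938 named genes and 35557 probe sets in all. Acat2, Soat1 and Nr1h2 had no such probe set and are not analysed here. The arrays came from mice that carry polyoma virus middle T under the mammary tumor virus promoter (MMTV-PyMT), which drives the oncogene in mammary epithelium. The JAM-A-/- group (labelled JamA-, genotype MMTV-PyMT JAM-A KO) comprised tumors 5333, 5346 and 5347, and the JAM-A+/+ group (labelled JamA+, genotype MMTV-PyMT) comprised tumors 5369, 5370 and 5393, all resected early in tumor development, with no age in the labels. Per the methods, the JAM-A-/- strain came from a cross with JAM-A null mice and littermates with JAM-A served as controls. Whether each tumor is from its own mouse is not labelled, so p-values measure the spread between tumors only, and the tissue label of tumor 5347, unlike its genotype label, does not state the loss of JAM-A.

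Cholesterol is built from acetyl-CoA through mevalonate and the isoprenoids to squalene, and then through a series of sterols. When the endoplasmic reticulum is poor in sterol, Scap carries SREBP2, the product of Srebf2, to the Golgi, where it is cut into a transcription factor for the synthesis genes, while the Insig proteins hold Scap back when sterol is plentiful. The liver X receptors (LXR) sense oxysterols and switch on cholesterol export. Proliferating epithelial cells need new membrane and make or import cholesterol.

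All 17 measured enzymes of synthesis had higher mean expression in JAM-A-/- than in JAM-A+/+ tumors. The differences ranged from 0.15 to 0.73 on the log2 scale with a median of 0.51, against a median of 0.09 over all named genes. Of the liver X receptor arm, Abca1, Abcg1, Mylip and Nr1h3 differed by -0.22, 0.07, -0.09 and 0.18, and all intervals included 0. Without tumor 5333 the first 3 were at 0.065, 0.30 and 0.17. Each probe set was compared with limma, and a gene met the criteria when the fold change was at least 1.3 and the unadjusted p was under 0.05. In this direction 15 of the 28 genes met the criteria, 12 of them enzymes, while 4.73% of all named genes did. None of the 28 met them in the other direction, where 0.592% of named genes did. In 18 of the 28 genes every JAM-A-/- tumor lay above every JAM-A+/+ tumor, which was the case for 12.4% of named genes, and in none did every JAM-A-/- tumor lie below, against 2.55%. None of the 28 passed the Benjamini-Hochberg adjustment over all probe sets. Their adjusted p from limma lay between 0.258 and 0.933. F11r, the gene of JAM-A, read 5.91, 5.55 and 6.53 in tumors 5333, 5346 and 5347 (JAM-A-/-), whereas tumors 5369, 5370 and 5393 (JAM-A+/+) read 10.1, 10.23 and 10.47. All 6 labels therefore match the targeted gene, whose probe set was the only one to pass the adjustment (difference -4.27, standard error 0.24, adjusted p = 0.00667 from limma).

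Named genes lay higher in JAM-A-/- tumors in general, with 71.8% of them above 0, and this depended on the scaling of the arrays. Among the 7064 named genes with a mean level as high as the enzymes (7.36 to 9.88), 7.36% met the criteria higher, 16.5% had all JAM-A-/- tumors above all JAM-A+/+ tumors and the median difference was 0.14. When the named probe sets were quantile-normalized among themselves, the median of all named genes was -0.001. The median of the enzymes was then 0.37, 16 of 17 lay above the median of all named genes, 5 of the 28 genes met the criteria higher, all of them enzymes, and named genes met them about equally in both directions (1.78% higher and 1.57% lower). With quantile normalization between all arrays the median of the enzymes was 0.39, and 4 genes met the criteria higher, again enzymes, with 2.86% of named genes higher and 0.873% lower. The 18 genes with all JAM-A-/- tumors above all JAM-A+/+ tumors became 5 with quantile normalization over named probe sets and 7 between all arrays. For the enzymes 14 became 3 and 5. The share of named genes was not counted under these scalings. Where single genes below are said to overlap or not, this is in the deposited values.

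**Figure D1:**
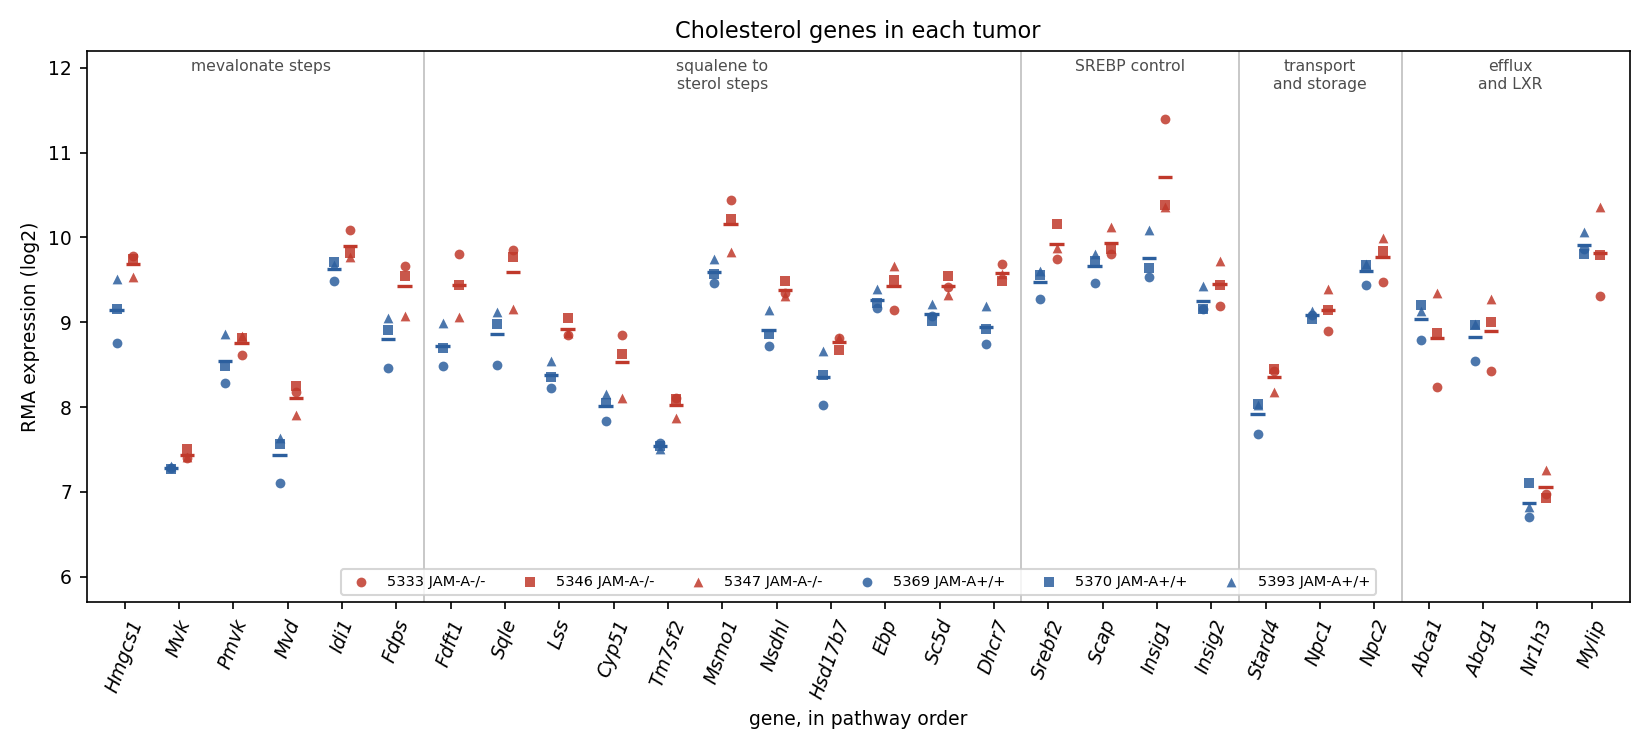
The 28 measured genes in pathway order (horizontal axis) with their RMA expression in log2 units (vertical axis). Each symbol is 1 tumor, with JAM-A+/+ tumors in blue and JAM-A-/- tumors in red, and the horizontal ticks are group means. In these deposited values all red symbols lie above all blue ones in 18 genes, and 14 of these are synthesis enzymes.

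The mevalonate steps run from acetyl-CoA to farnesyl diphosphate, and 6 of their 7 listed enzymes were measured. Of these, 3 met the criteria higher and 5 had groups that did not overlap. Hmgcs1 encodes the cytosolic synthase that makes HMG-CoA. JAM-A-/- tumors 5333, 5346 and 5347 had log2 values of 9.78, 9.75 and 9.53, and JAM-A+/+ tumors 5369, 5370 and 5393 had 8.76, 9.16 and 9.51. No values overlapped, but JAM-A+/+ tumor 5393 came close to JAM-A-/- tumor 5347. The difference was 0.54 (standard error 0.20). It was 0.35 without tumor 5369, and Hmgcs1 met the criteria in 2 of the 6 fits that left out a tumor, those without tumor 5347 or 5393. Mvd, the decarboxylase that makes isopentenyl diphosphate, was at 8.18, 8.25 and 7.91 against 7.1, 7.57 and 7.64, with the tumors in the same order here and below. It was higher by 0.68 (standard error 0.18, 1.6-fold), with no overlap, and tumor 5369 was the lowest. Fdps, which makes farnesyl diphosphate, had 9.66, 9.55 and 9.07 against 8.46, 8.91 and 9.05. Tumors 5347 and 5393 were again the closest pair, and the difference was 0.62 (standard error 0.21, 1.54-fold). Fdps missed the criteria without tumor 5333 (0.50), 5346 (0.56) or 5369 (0.45).

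The remaining mevalonate enzymes differed less. Idi1, the isomerase that follows Mvd, had 10.09, 9.82 and 9.77 against 9.49, 9.71 and 9.68, a difference of 0.27 (95% interval -0.05 to 0.58) with no overlap. A second probe set of Idi1 differed by 0.28. Mvk, mevalonate kinase, had 7.4, 7.51 and 7.41 against 7.28, 7.27 and 7.31. Those groups did not overlap either, but the difference was 0.15 (95% interval -0.09 to 0.40). Pmvk, the next kinase, had 8.61, 8.81 and 8.84 against 8.28, 8.49 and 8.86, a difference of 0.21, and its highest value was that of JAM-A+/+ tumor 5393.

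From squalene synthase to the last sterol reductase 11 enzymes were listed and all were measured. Of these, 9 met the criteria higher, 9 had groups that did not overlap, and the median difference was 0.51. Fdft1 encodes squalene synthase, the first enzyme committed to sterols. Its values were 9.81, 9.44 and 9.06 against 8.48, 8.7 and 8.99, a difference of 0.71 (standard error 0.22, 1.64-fold). Its second probe set, with 9.27, 8.84 and 8.67 against 7.76, 8.18 and 8.41, differed by 0.81 and met the criteria as well. Sqle, squalene epoxidase, a rate-limiting step, had 9.85, 9.77 and 9.16 against 8.5, 8.98 and 9.12. Tumors 5333 and 5346 stood well above all JAM-A+/+ tumors and tumor 5347 only just. Its difference was 0.73 (standard error 0.23, 1.66-fold), and it missed the criteria without tumor 5333 (0.60) or tumor 5369 (0.54). Lss, which closes the ring to lanosterol, had a smaller spread, with 8.85, 9.05 and 8.87 against 8.23, 8.35 and 8.54, and a difference of 0.55 (standard error 0.13, adjusted p = 0.266 from limma). Dhcr7, the reductase that makes cholesterol from 7-dehydrocholesterol, had 9.69, 9.49 and 9.57 against 8.74, 8.92 and 9.19, and the lowest adjusted p of the 28 genes (difference 0.63, standard error 0.15, adjusted p = 0.258 from limma).

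Cyp51, the demethylase of lanosterol, was the only one of the 12 enzymes meeting the criteria whose groups overlapped. It had 8.85, 8.63 and 8.11 against 7.84, 8.05 and 8.16, so tumor 5347 lay below JAM-A+/+ tumor 5393, and it met the criteria in 2 of the 6 fits that left out a tumor, with the lowest difference, 0.35, without tumor 5333. Tm7sf2, a sterol reductase, had 8.11, 8.1 and 7.87 against 7.58, 7.54 and 7.51, with little spread among the JAM-A+/+ tumors. Msmo1, the methylsterol oxidase, had 10.44, 10.22 and 9.83 against 9.46, 9.57 and 9.74. Nsdhl, which acts in the same removal of methyl groups, had 9.35, 9.49 and 9.31 against 8.72, 8.86 and 9.15. The differences of these 4 genes were 0.51, 0.48, 0.57 and 0.47, and Nsdhl missed the criteria without tumor 5369, at 0.38. Hsd17b7, the ketone reductase of that complex, had 8.82, 8.67 and 8.81 against 8.02, 8.38 and 8.66, and its groups only just did not overlap. The difference of 0.41 had an unadjusted p of 0.0442 from limma. Without tumor 5369 it was 0.25 with an unadjusted p of 0.134 from limma, and Hsd17b7 met the criteria in 1 of the 6 fits that left out a tumor, the one without tumor 5393.

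Late in the pathway 2 enzymes missed the criteria. Sc5d, the desaturase before Dhcr7, had 9.41, 9.54 and 9.32 against 9.07, 9.02 and 9.22, with no overlap and an unadjusted p of 0.0296 from limma, but its fold of 1.25 was under the threshold. Ebp, the sterol isomerase, had 9.14, 9.5 and 9.66 against 9.17, 9.23 and 9.39. It was the enzyme in which tumor 5333 was the lowest of all tumors. Over the 17 measured enzymes, the highest value of all 6 tumors fell in tumor 5333 in 10 genes, in tumor 5346 in 5, and in tumors 5347 and 5393 in 1 each. The lowest fell in JAM-A+/+ tumor 5369 in 13.

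**Figure D2:**
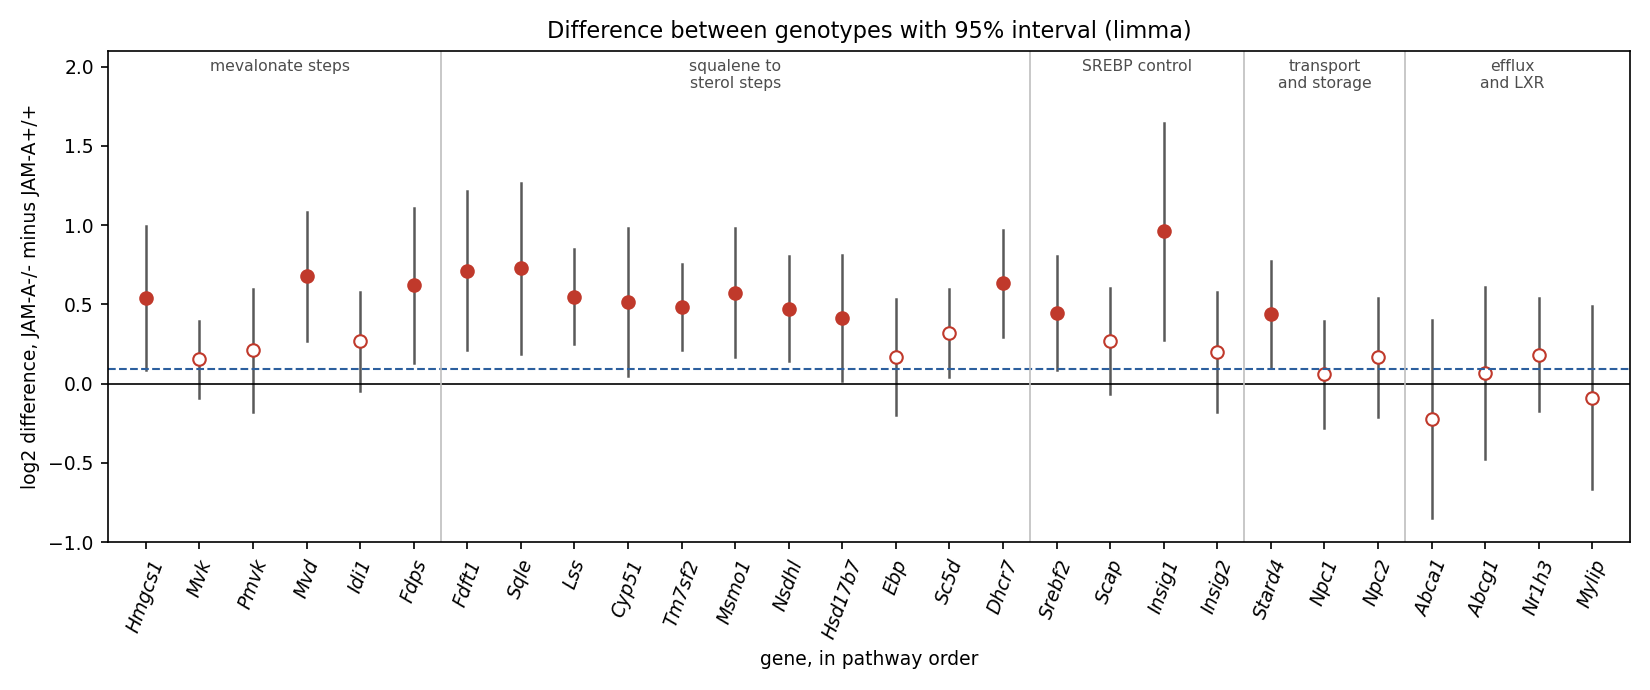
Log2 difference between JAM-A-/- and JAM-A+/+ tumors (vertical axis) for the 28 measured genes in pathway order (horizontal axis), with the 95% interval from limma as a bar. Filled circles met the criteria, the solid line is 0 and the dashed line is the median of all named genes at 0.09. Synthesis enzymes lie between 0.15 and 0.73, with intervals that include 0 for Mvk, Pmvk, Idi1 and Ebp, and the 4 genes of efflux and its receptors lie between -0.22 and 0.18, with intervals that all include 0.

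The calls on single enzymes were not equally stable. Mvd, Lss and Dhcr7 met the criteria in all 14 other fits, which used other scalings, other estimates of the spread, fewer probe sets, the mean of all probe sets of a gene, or left out a tumor. Tm7sf2 did so in 13, Fdft1 and Msmo1 in 12, Nsdhl in 11 and Sqle in 10. Fdps did so in 8, Hmgcs1 and Cyp51 in 7, and Hsd17b7 in 5. Other fold thresholds are not among the 14 fits. At a fold of at least 1.5 Lss missed the criteria, while Mvd and Dhcr7 met them. Without JAM-A+/+ tumor 5369, the lowest for most enzymes, 6 enzymes met the criteria, while 2.52% of all named genes met them higher. Without JAM-A-/- tumor 5333 it was 7 enzymes, with 10.1% of named genes. The median differences of the enzymes in these fits were 0.43 and 0.44.

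**Figure D3:**
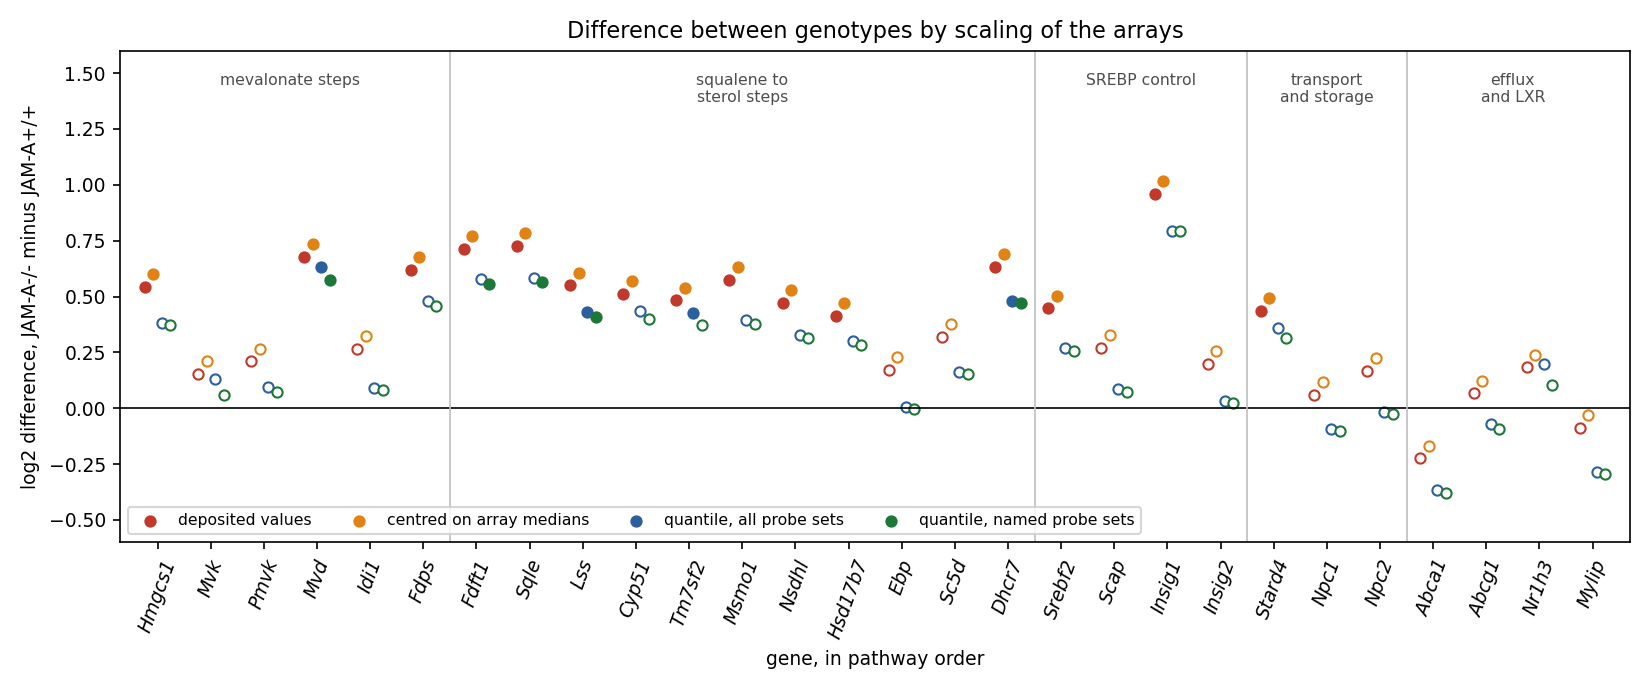
Log2 difference between JAM-A-/- and JAM-A+/+ tumors (vertical axis) for the 28 measured genes in pathway order (horizontal axis) in the deposited values and under 3 other scalings of the arrays, given by color. Filled symbols met the criteria. Mvd, Lss and Dhcr7 are filled under all 4, and Ebp, Npc1, Npc2 and Abcg1 cross 0.

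Promoters of the enzymes were read because these genes share SREBP2 as an activator, which binds sterol elements and acts together with NF-Y, a factor that binds the CCAAT box. RefSeq windows (GRCm38.p6) from 250 bases before to 50 after a start site were given for 15 of the 18 listed enzymes and 10 of the other 13 genes. The letters CCAAT, on either strand, occurred in 14 of these 15 enzymes (93.3%) and in 60% of the 10 other genes, against 41.1% of all genes with a window. By window the counts were 14 of 18 for enzymes and 37.4% of all 32851 windows. The enzyme without a match was Acat2. Of the efflux arm, Abca1, Nr1h2 and Nr1h3 had none in their windows and Mylip had 3 matches. The core of the sterol element, TCACNCCAC on either strand, was found in Hmgcs1 alone among the 25 genes and in 1.24% of all windows. A direct repeat of AGGTCA with 4 bases between the repeats and at most 2 mismatches, the type of element that liver X receptors bind, was found on either strand in 1 window of Dhcr7 and in 3.02% of all windows. No match to it fell on a match to the other motifs in that window. These are matches of letters and not measured sites, and the limit of 2 mismatches leaves out looser repeats. On the strand opposite the gene, the Abca1 window below holds such a repeat in the bases printed as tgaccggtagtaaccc. The lack of a match therefore does not show that a gene lacks an element for liver X receptors. The windows below, 5′ to 3′ on the strand of the gene, end at the base before the start. They are shown because they hold CCAAT or the sterol element core in enzymes that met the criteria. Abca1 is shown as a gene of the efflux arm without either. Capitals mark CCAAT, its reverse complement ATTGG, and the sterol element core.
Hmgcs1, chr13:119690201-119690350, plus strand: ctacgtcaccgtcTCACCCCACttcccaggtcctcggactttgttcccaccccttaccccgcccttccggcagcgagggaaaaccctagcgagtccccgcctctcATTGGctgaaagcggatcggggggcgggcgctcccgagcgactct
Mvd, chr8:122443423-122443542, minus strand: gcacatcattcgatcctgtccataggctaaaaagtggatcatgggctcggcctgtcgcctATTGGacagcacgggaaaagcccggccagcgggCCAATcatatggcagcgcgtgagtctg
Lss, chr10:76531485-76531604, plus strand: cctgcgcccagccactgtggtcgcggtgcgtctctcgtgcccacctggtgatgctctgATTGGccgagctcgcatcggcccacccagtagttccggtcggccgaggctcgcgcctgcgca
Tm7sf2, chr19:6067851-6067970, minus strand: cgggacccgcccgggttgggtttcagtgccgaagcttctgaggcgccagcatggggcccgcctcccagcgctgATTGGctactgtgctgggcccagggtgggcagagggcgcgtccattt
Msmo1, chr8:64733579-64733698, minus strand: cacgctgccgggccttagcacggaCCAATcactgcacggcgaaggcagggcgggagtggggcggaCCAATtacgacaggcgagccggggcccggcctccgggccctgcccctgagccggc
Hsd17b7, chr1:169969206-169969325, minus strand: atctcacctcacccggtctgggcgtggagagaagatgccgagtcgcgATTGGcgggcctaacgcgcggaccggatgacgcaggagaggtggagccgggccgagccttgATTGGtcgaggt
Abca1, chr4:53159896-53160015, minus strand: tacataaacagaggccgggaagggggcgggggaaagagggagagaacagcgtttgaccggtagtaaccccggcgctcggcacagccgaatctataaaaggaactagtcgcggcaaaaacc

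The promoter letters did not separate enzymes by their difference between genotypes. Mvk, with 5 matches to CCAAT, differed by 0.15 and Ebp, with 2, by 0.17. Of the enzymes with 1 match each, Lss, Cyp51 and Tm7sf2 differed by 0.48 to 0.55, but Sc5d by 0.32 and Pmvk by 0.21.

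**Figure D4:**
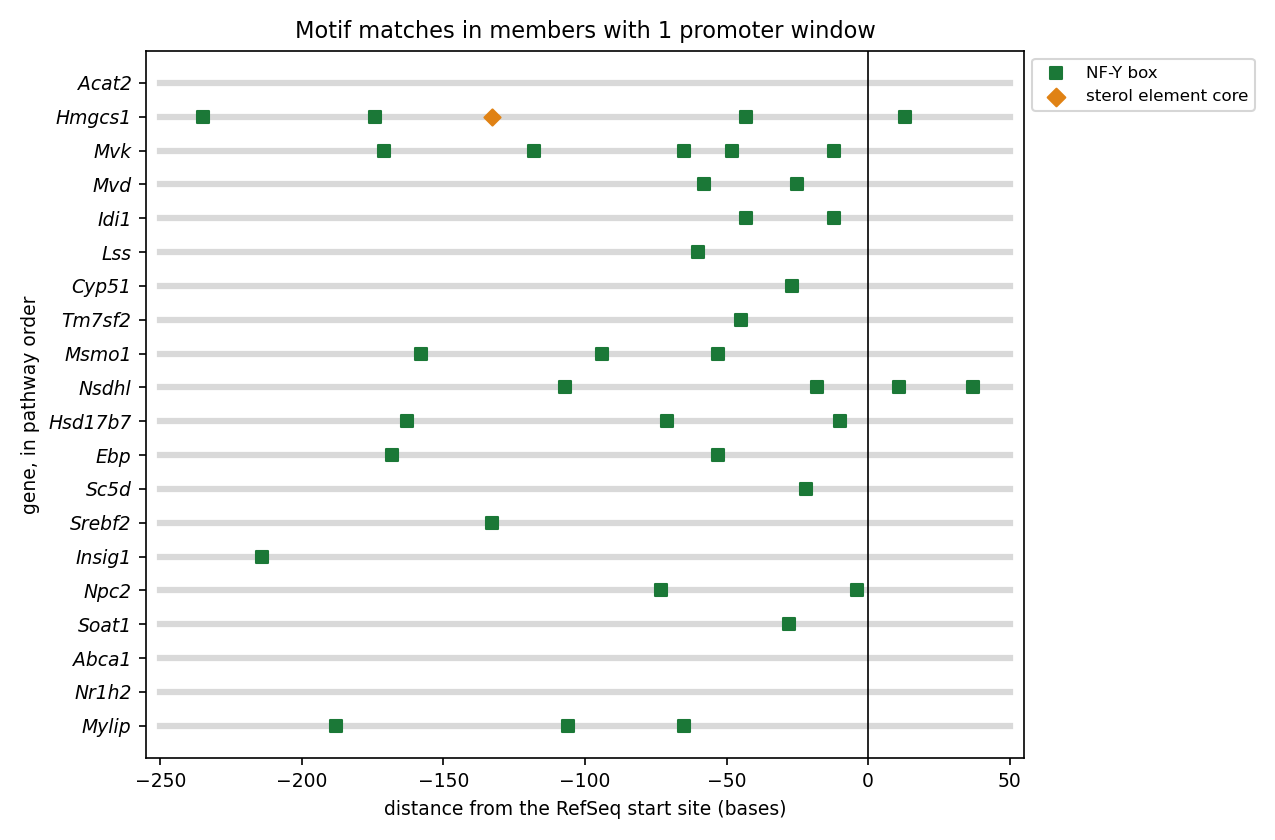
Position of motif matches on either strand, in bases from the RefSeq start site (horizontal axis), in the 20 listed genes with 1 promoter window (vertical axis, pathway order). Squares are matches to the NF-Y box, the diamond is the match to the sterol element core in Hmgcs1, and gray bars are the windows read. Most enzymes have a square within 100 bases before the start, and Acat2, Abca1 and Nr1h2 have none.

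Among the genes that control SREBP, 2 of 4 met the criteria higher. Insig1, which retains Scap in the endoplasmic reticulum and is itself a target of SREBP2, had 11.4, 10.38 and 10.36 against 9.53, 9.64 and 10.09. There was no overlap, tumor 5333 stood about 1 log2 unit above the other JAM-A-/- tumors, and the difference of 0.96 (standard error 0.30, 1.95-fold) was the largest of the 28 genes in the deposited values. Without tumor 5333 it was 0.62 and still met the criteria, but Mvd, at 0.64, was then larger. With quantile normalization over named probe sets it was 0.79 with an unadjusted p of 0.0581 from limma, and it no longer did. Insig2, the paralog, had 9.19, 9.44 and 9.72 against 9.16, 9.16 and 9.43, with overlapping groups and its highest value in tumor 5347. Srebf2, the gene of SREBP2, had 9.74, 10.16 and 9.88 against 9.27, 9.56 and 9.61, a difference of 0.45 (standard error 0.16). It missed the criteria without tumor 5346 or 5369. Scap, the sterol sensor and escort, had 9.81, 9.86 and 10.12 against 9.46, 9.72 and 9.8. Its groups only just did not overlap and it missed the criteria, at 0.27.

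Srebf2 also carries Mir33 within the gene, a microRNA known to repress Abca1, and its mature sequence from RefSeq (GRCm38.p6, chr15:82198127-82198147, plus strand) is shown because it ties the synthesis factor to the efflux arm. Capitals mark the seed, bases 2 to 8.
mmu-miR-33-5p: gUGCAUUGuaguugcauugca
The probe set of Mir33 was dim, at 2.87, 2.87 and 2.99 against 2.73, 2.73 and 2.68, where array medians lay between 6.23 and 6.34. The groups did not overlap and the difference of 0.20 (standard error 0.11) did not meet the criteria. Such a probe set reads the hairpin's locus and does not measure the mature form.

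In sterol transport and storage 1 of the 3 measured genes met the criteria. Stard4, a carrier of sterol between membranes and a known target of SREBP2, had 8.42, 8.45 and 8.18 against 7.68, 8.04 and 8.02, a difference of 0.44 (standard error 0.15) with no overlap, and it missed the criteria without tumor 5346 or 5369. Npc1 and Npc2 move cholesterol out of late endosomes and lysosomes. Npc1 had 8.9, 9.15 and 9.39 against 9.09, 9.04 and 9.13, so the JAM-A-/- tumors spanned the JAM-A+/+ tumors. Npc2 had 9.48, 9.84 and 9.99 against 9.44, 9.68 and 9.69. Their differences of 0.06 and 0.17 were near the median of all genes and turned below 0 with quantile normalization (-0.10 and -0.03 over named probe sets).

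Efflux and its receptors held no gene that met the criteria. Abca1, the pump that loads cholesterol onto apolipoproteins, had 8.24, 8.87 and 9.34 against 8.79, 9.2 and 9.13. The lowest and the highest of the 6 values were both in JAM-A-/- tumors, and the difference was -0.22 (95% interval -0.85 to 0.40), or 0.07 without tumor 5333. Abcg1, which exports cholesterol to lipoprotein particles, had 8.42, 9 and 9.27 against 8.54, 8.97 and 8.98, with the same pair of tumors at the ends. Its difference was 0.07 (95% interval -0.48 to 0.61), and -0.09 with quantile normalization over named probe sets. Mylip, also called Idol, a ligase that marks lipoprotein receptors for degradation under LXR, had 9.31, 9.79 and 10.36 against 9.86, 9.8 and 10.06. It differed by -0.09 (95% interval -0.66 to 0.49), or 0.17 without tumor 5333. Nr1h3, the receptor LXR alpha, had 6.98, 6.93 and 7.26 against 6.7, 7.1 and 6.82, a difference of 0.18. For Abca1, Abcg1 and Mylip the JAM-A-/- tumors differed among themselves by about 1 log2 unit, so their intervals are wide.

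The synthesis and efflux arms were set against each other within each tumor. For each gene the deviation from its mean over the 6 tumors was taken, and the mean over Abca1, Abcg1 and Mylip was subtracted from the mean over the 17 enzymes. The enzymes had mean deviations of 0.32, 0.30 and 0.09 in JAM-A-/- tumors 5333, 5346 and 5347 and of -0.43, -0.23 and -0.05 in JAM-A+/+ tumors 5369, 5370 and 5393. The LXR targets had -0.56, 0.002 and 0.44, and -0.16, 0.11 and 0.17. Synthesis minus efflux was thus 0.88 and 0.29 in tumors 5333 and 5346, but -0.35 in tumor 5347. The JAM-A+/+ tumors had -0.28, -0.33 and -0.22. The balance therefore did not separate the genotypes, since in the deposited values tumor 5347 fell below all JAM-A+/+ tumors while the other JAM-A-/- tumors lay above them. The difference between group means was 0.55, and 0.25 without tumor 5333, 0.87 without tumor 5347 and 0.53 to 0.58 without any other tumor. With quantile normalization over named probe sets the enzymes of tumor 5347, at -0.12, also lay below those of JAM-A+/+ tumor 5393, at -0.04, and synthesis minus efflux was 0.89, 0.30 and -0.31 in tumors 5333, 5346 and 5347 against -0.31, -0.34 and -0.22 in tumors 5369, 5370 and 5393. Tumor 5347 then lay among the JAM-A+/+ tumors, as it did with quantile normalization between all arrays, at -0.30 against -0.32, -0.35 and -0.215. No test was made of these means, because the genes were listed with earlier results of these data known.

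**Figure D5:**
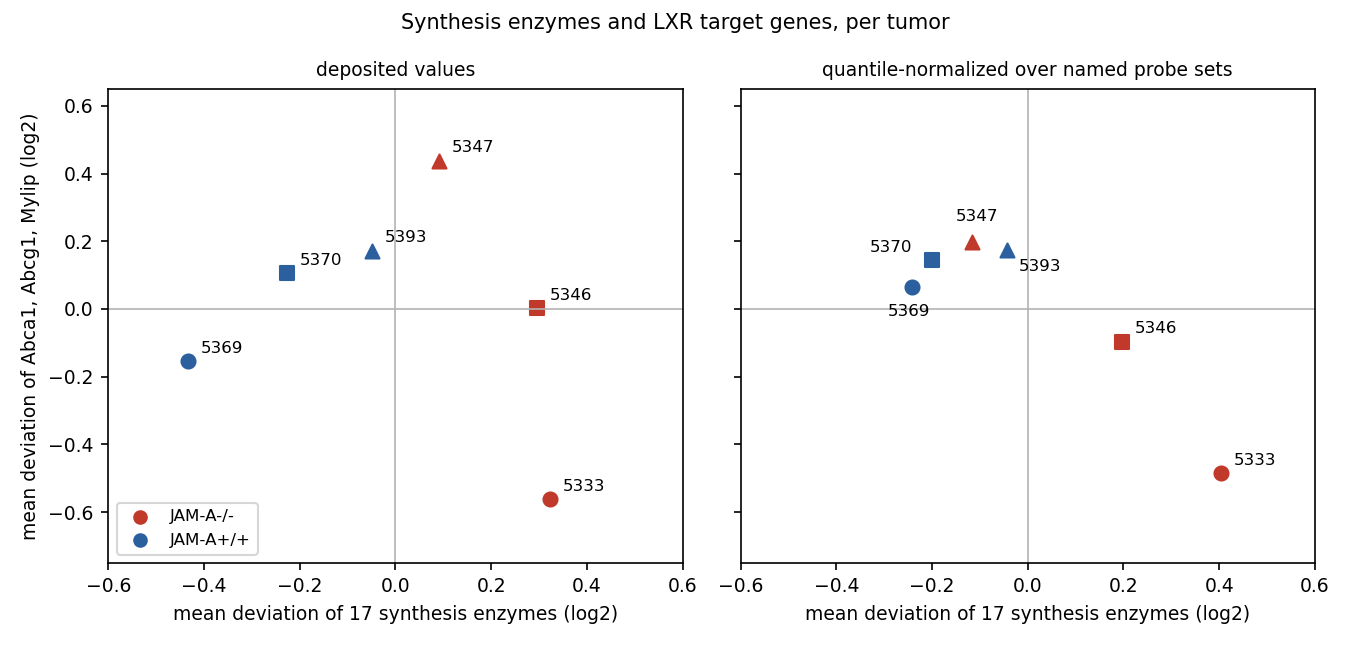
Mean log2 deviation of the 17 synthesis enzymes (horizontal axis) and of Abca1, Abcg1 and Mylip (vertical axis) in each tumor, labelled by number, in the deposited values (left) and with quantile normalization over named probe sets (right). JAM-A-/- tumors are red and JAM-A+/+ tumors blue. Tumor 5333 has the highest synthesis and the lowest efflux values in both panels, and tumor 5347 lies beside the JAM-A+/+ tumors in the right panel.

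Other genes of the pathway were grouped by function. Of 4 measured genes of late and branch steps, 2 met the criteria higher. Tmem97, a sterol-responsive membrane protein, had 9.92, 9.5 and 9.24 against 8.33, 9.05 and 9, a difference of 0.76 (standard error 0.24). Lbr, which also has sterol reductase activity, differed by 0.41, while Ggps1, which leads to geranylgeranyl diphosphate, differed by 0.02. Of 8 genes of uptake and endosomal handling, Scarb1, a receptor for high density lipoprotein, met the criteria at 0.49 and Stard3, an endosomal sterol carrier, at 0.52. Nceh1, which hydrolyzes cholesterol esters, met them at 0.55. Of 6 oxysterol genes, Hsd3b7, an enzyme of bile acid synthesis, met them at 0.48 with overlapping groups. None of 5 genes around SREBP processing did, and Srebf1, the gene of SREBP1, differed by 0.39 with 11.48, 12.11 and 12.42 against 11.58, 11.57 and 11.68. None of 4 further ABC transporters did, with Abcg5 and Abca7 nearest at 0.34 and 0.14.

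Fatty acid genes driven by SREBP1 had a median difference of 0.24 over 12 genes, 1 of which met the criteria higher, the citrate carrier Slc25a1 at 0.44. Of the 12 genes, 10 lay above 0 and 9 above the median of all named genes. Thrsp, Acly and Scd2 differed by 0.62, 0.48 and 0.44 without meeting the criteria. Below 0 were Fasn, fatty acid synthase, at -0.02 and Acaca, acetyl-CoA carboxylase, at -0.13. The mean deviations of the 12 genes were -0.13, 0.16 and 0.34 in JAM-A-/- tumors. In JAM-A+/+ tumors they were -0.50, -0.02 and 0.15. Tumor 5333, the highest for cholesterol synthesis, was thus the lowest JAM-A-/- tumor for fatty acid synthesis. The difference between the lists was not tested.

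Markers of the cells in these tumors bear on the reading of the values, because in bulk tissue fewer cells of a type and less RNA per cell cannot be told apart. Luminal epithelial markers (Krt8, Krt18, Krt19, Epcam and Cdh1) were bright in all tumors, as befits mammary epithelium, and none of 5 met the criteria. Their mean level was 11.47, 12.01 and 12.05 in JAM-A-/- tumors and 11.37 to 11.71 in JAM-A+/+ tumors. Macrophage markers, of which none of 8 met the criteria, had mean levels of 8.86, 9.29 and 9.56 in JAM-A-/- tumors 5333, 5346 and 5347 and of 8.72 to 9.47 in JAM-A+/+ tumors. Within the JAM-A-/- group Abca1, Abcg1 and Mylip rose from tumor 5333 to 5346 to 5347. Mean levels of macrophage markers did so too, as did those of luminal, adipocyte, fibroblast and endothelial markers. Among JAM-A+/+ tumors macrophage markers were highest in tumor 5370 and the mean of Abca1, Abcg1 and Mylip in tumor 5393. Cholesterol enzymes were highest in tumor 5333, which had the lowest luminal and macrophage levels of the JAM-A-/- group. Adipocyte markers (0 of 6 met the criteria) were lowest in tumor 5369, at a mean level of 5.44, while tumors 5370 and 5393 had 6.98 and 7.20 and JAM-A-/- tumors had 6.02 to 7.01. Tumor 5369 was also lowest for 8 proliferation markers, with a mean deviation of -0.52, while tumors 5370 and 5393 had 0.002 and 0.06 and JAM-A-/- tumors had 0.08 to 0.25. Of these 8 markers 1, Aurka, met the criteria. Luminal, macrophage, fibroblast, endothelial and milk lists were likewise lowest in tumor 5369, at mean deviations of -0.35, -0.47, -0.62, -0.61 and -0.835. Hypoxia genes were lowest in tumor 5393. Fibroblast markers met the criteria higher in JAM-A-/- tumors in 2 of 6, endothelial markers in 1 of 5 and hypoxia genes in 1 of 8, against 4.73% of named genes. Their median differences were 0.34, 0.41 and 0.325, against 0.51 for the enzymes and 0.09 over all named genes. Proliferation, luminal, macrophage, adipocyte and milk lists had medians of 0.27, 0.17, 0.13, 0.07 and -0.08. For hypoxia genes tumor 5346 had a mean deviation of 0.78 and the others lay between -0.29 and -0.04. The part of these markers in the cholesterol values was not tested.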

How the data were processed

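RNA of 6 tumors was hybridized to Affymetrix arrays, 1 array per tumor, and the authors deposited log2 values with 2 decimals, summarized by RMA with Affymetrix Expression Console 1.1 per the submitters' processing notes. Its settings are not given in the sources used. Arrays give no read counts, and 3 arrays per group limit the precision.

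From these values limma 3.58.1 in R 4.3.3 was fitted to all 35557 probe sets (JAM-A-/- minus JAM-A+/+, no covariate, empirical Bayes, Benjamini-Hochberg adjustment over all probe sets). The criteria (fold change 1.3 or more, unadjusted p under 0.05) are those that the study's supplementary signature meets. Genes were named from platform annotation (21789 probe sets with 1 symbol), and the symbols of all 28 measured genes matched the RefSeq gene table of GRCm38.p6. Promoter and microRNA sequences are from RefSeq. The 31 genes and the other lists were chosen with earlier results of these data known. All 31 genes are named, with the other pathway genes that met the criteria. For pathway lists in which none did, those of smallest p are named. Ggps1, Thrsp, Acly, Scd2, Fasn and Acaca are named outside this rule. The genes of like level were chosen after seeing the data. The fit was tested on simulated data. An exact permutation test of 3 against 3 tumors cannot go below p = 0.1 and was not used.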

Additional observations from a re-analysis of the deposited data

How the results depend on the processing

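The count of 15 genes meeting the criteria higher in JAM-A-/- tumors became 5 with quantile normalization over named probe sets, 4 with quantile normalization between all arrays, 7 with each probe set's own spread and 6 at a fold of at least 1.5, and it lay between 7 (without tumor 5369) and 15 with a tumor left out (9 without tumor 5346). For the enzymes the count of 12 became 5, 4, 6 and 5 under the same settings. With a tumor left out it lay between 6 (without tumor 5369) and 12 (7 without tumor 5333). The share of all named genes that met the criteria higher changed too. It was 4.73% in the main fit and 1.78%, 2.86%, 2.46% and 1.22% under the same settings. With a tumor left out it lay between 2.52% (without tumor 5369) and 10.1% (without tumor 5333). Centring on array medians, array weights, a robust prior with an intensity trend, leaving out the dimmest 40% of probe sets, a fold of at least 1.2, no fold threshold and the mean of all probe sets of a gene kept both counts within 1.5 times. In these fits between 4.7% (robust prior with an intensity trend) and 8.13% (centring) of the named genes tested met the criteria higher. The median difference of the enzymes lay between 0.37 and 0.59 over the scalings and left-out tumors. No gene of the 28 passed the adjustment under any setting run. The smallest adjusted p was 0.0946, for Lss and Tm7sf2 with array weights.

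Direction changed only in genes that did not meet the criteria. With quantile normalization over named probe sets Ebp was at -0.005, Npc1 at -0.10, Npc2 at -0.027 and Abcg1 at -0.093, and with quantile normalization between all arrays Npc1 was at -0.091, Npc2 at -0.017 and Abcg1 at -0.072. With a tumor left out Npc1 lay between -0.062 and 0.18, Abca1 between -0.48 and 0.065, Abcg1 between -0.12 and 0.30 and Mylip between -0.36 and 0.17. The median of Abca1, Abcg1 and Mylip lay between -0.36 and 0.17. The causes were not tested. No paired analysis was possible because tumor numbers do not pair the groups.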
